A study of Mus musculus with 8 samples.

Results

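DARPP-32, the phosphoprotein encoded by Ppp1r1b, and the dopamine and adrenergic receptors were compared between the dorsal and the ventral medial entorhinal cortex (MEC) of the adult mouse. The 10 genes were taken by name, namely Drd1a, Drd2, Drd5, Adra1a, Adra1b, Adra1d, Adra2a, Adra2c, Adrb1 and Ppp1r1b, as 1 signalling system and not by a threshold on a measured value, with earlier results of these data known. All were found among the 38553 genes of the deposited table, and 8 of them entered the comparison across 13674 genes. Expression was measured by RNA-Seq in 4 dorsal and 4 ventral libraries from male C57BL/6JolaHsd mice aged 8 weeks, without any treatment or transgene. Each library held tissue of 3 or 4 of the 13 mice, cut from sagittal slices (400 µm) of the right hemisphere, so that the spread between libraries is a spread between pools of animals. The same 4 pools of mice gave the dorsal and the ventral tissue, but which libraries share a pool is not known.

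The catecholamines dopamine and noradrenaline reach the cortex through long axons from the midbrain and the brainstem and act on receptors coupled to G proteins. D1-class dopamine receptors (Drd1a, Drd5) and beta receptors raise cyclic AMP through the stimulatory G proteins, D2-class and alpha2 receptors lower it through the inhibitory ones, and alpha1 receptors act through phospholipase C beta and protein kinase C. DARPP-32 is best known from the striatum, where cyclic AMP-dependent protein kinase (PKA) turns it into an inhibitor of protein phosphatase 1, while phosphorylation by Cdk5 turns it into an inhibitor of PKA.

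The 2 threonine codons of DARPP-32 that these kinases act on lie close together in the first part of the coding sequence, which is shown because this gene carries the one difference between regions that passed the test. It was read from the transcript Ppp1r1b-201 of GENCODE M21 (mouse build GRCm38, chr11:98349094-98351325, plus strand, with introns removed) and covers the first 225 coding bases, 75 of 194 codons, from 4 of the 7 coding exons. The capitals mark codon 34, the PKA site, and codon 75, the Cdk5 site.
Ppp1r1b: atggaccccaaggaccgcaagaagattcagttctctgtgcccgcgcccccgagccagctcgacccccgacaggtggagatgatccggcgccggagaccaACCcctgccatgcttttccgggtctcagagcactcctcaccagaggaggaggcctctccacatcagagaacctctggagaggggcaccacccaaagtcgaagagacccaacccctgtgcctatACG
Codon 34 reads ACC at chr11:98350587-98350589 and codon 75 reads ACG at chr11:98351323-98351325. The deposited values are sums over a gene, so they say nothing on phosphorylation at these sites.

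The columns of the FPKM table are headed D1 to D4 and V1 to V4. FPKM scales the fragments of a gene to its exon length and to the size of the library and is a level that can be compared between genes. The columns D1, D2, V1 and V2 were taken as dorsal and D3, D4, V3 and V4 as ventral. Their averages match the mean FPKM of the conditions in the authors' comparison (within 0.1% for 19369 of 19375 and 19355 of 19364 genes above 0.1 FPKM). That comparison does not name the regions, and the paper's expression dataset lists these means as dorsal and ventral FPKM. For 4 of the 8 columns the assignment goes against the region letter in the header. Each header region thus holds libraries of both assigned regions in equal number. If the assignment is right, a difference between regions cancels when libraries are split by header. No label ties a column to a sample, and the results under the headers' own regions are given beside the calls and sums that they change. Libraries are listed below in the order D1, V1, D2, V2 for dorsal and D3, V3, D4, V4 for ventral. The estimated fragments assigned to genes came to between 10780902 and 15359782 per library. Levels of a cell type's genes in such tissue cannot tell fewer cells from less RNA per cell.

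Ppp1r1b was the most abundant of the 10 genes and was higher dorsally. Its gene (ENSMUSG00000061718) lies on chromosome 11 from 98348404 to 98357796, on the plus strand. The dorsal libraries had 8.96, 11.7, 11.99 and 10.4 FPKM and the ventral libraries 7.03, 5.71, 7.21 and 5.26. Every dorsal library was above every ventral one, and the lowest dorsal library, headed D1, stood 1.76 FPKM above the highest ventral library, headed D4. The means were 10.8 ± 1.39 (SD, n = 4) and 6.30 ± 0.966 FPKM, a dorsal level 1.71 times the ventral one. The limma fold change, ventral minus dorsal on log2(FPKM + 1), was -0.69 (SE 0.115, 95% interval -0.95 to -0.43), with a Benjamini-Hochberg adjusted p of 0.0101 over all genes tested. A gene was called D>V or V>D at an adjusted p under 0.05 and a ratio of mean FPKM beyond 1.2, and Ppp1r1b was the only called gene of the 8 tested. In all, 3.6% of genes were called, 2.15% D>V and 1.45% V>D. Without each library in turn the adjusted p ranged from 0.00872 to 0.0421, and edgeR's quasi-likelihood test on 83 to 249 fragments per library gave -0.71 on the log2 scale with an adjusted p of 0.00164. With the regions that the headers name, the change was -0.12 and the gene was not called (limma adjusted p = 0.978), and within the 4 libraries on which header and assignment give the same region it was -0.81, also not called (limma adjusted p = 0.300).

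**Figure D1:**
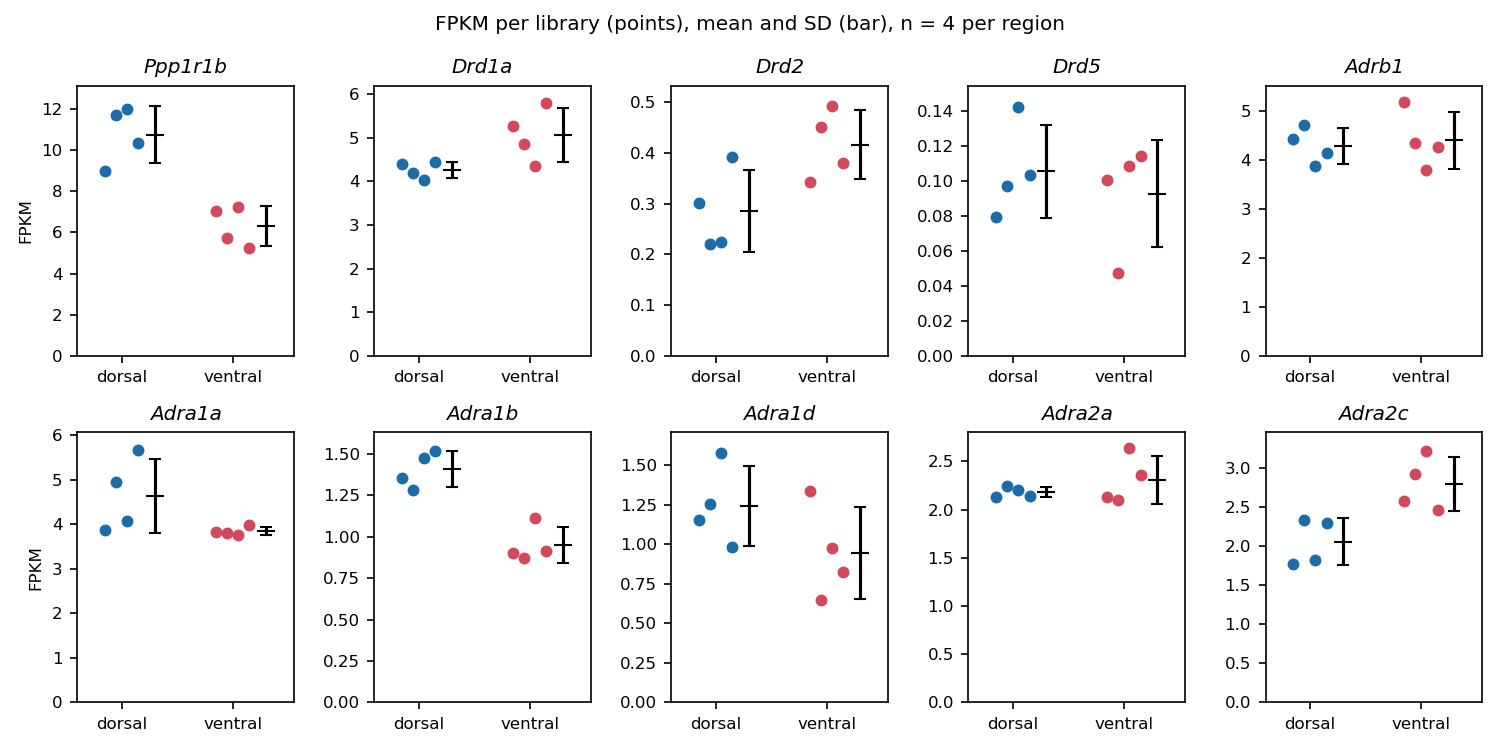
FPKM of the 10 genes in each library, dorsal in blue and ventral in red, with the mean and SD of 4 libraries beside the points; each panel has its own axis from 0. The regions do not overlap for Ppp1r1b and Adra1b, higher dorsally, and Adra2c, higher ventrally.

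Exons of Ppp1r1b overlap those of 1700003D09Rik on the other strand, and whether the counting used strand is not given in the sources used here, so that reads of these genes cannot be told apart with certainty. 1700003D09Rik was listed at 0.531 ± 0.0926 FPKM dorsally and 0.609 ± 0.143 ventrally (n = 4 each), against 10.8 and 6.30 for Ppp1r1b.

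Among the dopamine receptors, Drd1a, which encodes the D1 receptor, made up nearly all of the summed level. Its gene (ENSMUSG00000021478) lies on chromosome 13 from 54051183 to 54055705, on the minus strand. Drd1a had 4.40, 4.18, 4.04 and 4.44 FPKM in the dorsal libraries and 5.27, 4.85, 4.35 and 5.80 in the ventral ones. Of the ventral libraries 3 were above all dorsal ones, and the ventral library headed D4 lay within the dorsal range. The limma fold change was 0.20 (SE 0.0877, 95% interval 0.0047 to 0.40) with an adjusted p of 0.300, so that no difference was called.

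Drd2, the D2 receptor (ENSMUSG00000032259, chromosome 9, 49340627 to 49408177, plus strand), was near the limit of these libraries. It had 0.301, 0.221, 0.225 and 0.393 FPKM dorsally and 0.343, 0.452, 0.492 and 0.380 ventrally. The ranges overlap, through the dorsal library headed V2. In all, 25 dorsal and 38 ventral fragments were counted, or 0.481 (exact Poisson 95% interval 0.311 to 0.710) and 0.739 (0.523 to 1.01) per 1000000 assigned fragments, intervals that cover counting error only. The difference on log2(FPKM + 0.1) was 0.44, with p = 0.0857 in a two-sided exact permutation test, whose smallest possible p with 4 libraries against 4 is 0.0286. Tested by edgeR among all 17807 genes with a mean of at least 3 fragments, of which 5.51% were called, it had an adjusted p of 0.483.

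Drd5, the other D1-class receptor (ENSMUSG00000039358, chromosome 5, 38319367 to 38322518, plus strand), was lower still. Its FPKM was 0.0792, 0.0972, 0.142 and 0.104 dorsally and 0.101, 0.0477, 0.109 and 0.114 ventrally, on 2 to 6 fragments per library. The ranges overlap almost entirely. The difference of -0.10 on log2(FPKM + 0.1) had p = 0.629 in the exact permutation test (edgeR adjusted p = 0.910), and a difference was not detectable at this depth. An annotated gene on the other strand, Gm26560, overlaps the exon of Drd5.

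Drd1a held 87.9% to 92.9% of the summed FPKM of the 3 dopamine receptors in every library. The sum itself was 4.66 ± 0.242 FPKM dorsally and 5.58 ± 0.571 ventrally. The regions barely failed to overlap, with 4.93 in the highest dorsal library, headed V2, and 4.95 in the lowest ventral one, headed D4. Drd1a alone did overlap, and the library headed D4 had the highest Drd2 level, 0.492 FPKM on 12 fragments. The ratio of Ppp1r1b to Drd1a was 2.04, 2.80, 2.96 and 2.33 in the dorsal libraries and 1.33, 1.18, 1.66 and 0.906 in the ventral ones. Ppp1r1b thus exceeded Drd1a in all libraries but the ventral one headed V4. With the regions that the headers name, the ventral minus dorsal difference of this ratio was -0.195 in place of -1.27, and that of the sum 0.307 in place of 0.922 FPKM. These sums and ratios were chosen after the values were seen and have no test.

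The alpha1 receptors were listed higher dorsally, most clearly Adra1b, and none of the 3 was called by limma. Adra1b (ENSMUSG00000050541) lies on chromosome 11 from 43774606 to 43901210, on the minus strand. Its FPKM was 1.35, 1.28, 1.48 and 1.52 in the dorsal libraries and 0.903, 0.873, 1.11 and 0.914 in the ventral ones. Each dorsal library was above each ventral one, and the mean dorsal level was 1.48 times the ventral one (1.41 ± 0.109 against 0.951 ± 0.110, n = 4 each). On log2(FPKM + 1), which understates the change of such a low gene, limma gave -0.30 (SE 0.0989, 95% interval -0.52 to -0.08) with an adjusted p of 0.146. With a constant of 0.1 in place of 1, limma gave -0.52 and an adjusted p of 0.169, so that Adra1b was not called either way. edgeR on its 35 to 72 fragments per library gave -0.55 and an adjusted p of 0.0428, and so called it D>V, where edgeR called 6.41% of genes (3.44% D>V and 2.97% V>D). The call thus depended on the test, and Adra1b is treated here as not called.

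Adra1a, the most abundant alpha1 receptor (ENSMUSG00000045875, chromosome 14, 66635251 to 66771168, plus strand), had 3.89, 4.96, 4.07 and 5.68 FPKM dorsally and 3.84, 3.82, 3.76 and 3.99 ventrally. The ventral libraries lay close together, while the dorsal ones spread from within the ventral range to well above it, in the libraries headed V1 and V2. The limma fold change was -0.21 (SE 0.105, 95% interval -0.44 to 0.02) with an adjusted p of 0.369.

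Adra1d (ENSMUSG00000027335, chromosome 2, 131545850 to 131562283, minus strand) had 1.15, 1.25, 1.58 and 0.982 FPKM dorsally and 1.34, 0.650, 0.975 and 0.824 ventrally. The ranges overlap, and the limma fold change of -0.21 (SE 0.137, 95% interval -0.52 to 0.10) had an adjusted p of 0.525. Its exons overlap Gm14285 on the other strand, which had 0 to 3 fragments per library against 18 to 44 for Adra1d.

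Of the alpha2 receptors, Adra2c was listed higher ventrally, and neither it nor Adra2a was called. Adra2c (ENSMUSG00000045318, chromosome 5, 35278319 to 35281763, plus strand) had 1.77, 2.34, 1.82 and 2.30 FPKM dorsally and 2.58, 2.93, 3.22 and 2.46 ventrally. The regions do not overlap, and the gap between the highest dorsal library, headed V1, and the lowest ventral one, headed V4, was 0.125 FPKM. Limma gave 0.31 (SE 0.106, 95% interval 0.08 to 0.55) with an adjusted p of 0.164, and edgeR gave 0.45 with an adjusted p of 0.0601, so that neither test called it.

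Adra2a (ENSMUSG00000033717, chromosome 19, 54044151 to 54048982, plus strand) had 2.13, 2.25, 2.21 and 2.15 FPKM dorsally and 2.14, 2.10, 2.64 and 2.36 ventrally. All dorsal libraries lay inside the ventral range, which was wider. The limma fold change was 0.05 (SE 0.0880, 95% interval -0.14 to 0.25), with an adjusted p of 0.834.

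Adrb1, the beta1 receptor (ENSMUSG00000035283, chromosome 19, 56722199 to 56733113, plus strand), had 4.43, 4.71, 3.87 and 4.14 FPKM dorsally and 5.17, 4.35, 3.79 and 4.27 ventrally. All dorsal libraries lay within the ventral range. The limma fold change was 0.03 (SE 0.0954, 95% interval -0.19 to 0.24), with an adjusted p of 0.937, and it changed sign when the dorsal library headed D2 (-0.013) or the ventral library headed D3 (-0.041) was left out.

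**Figure D2:**
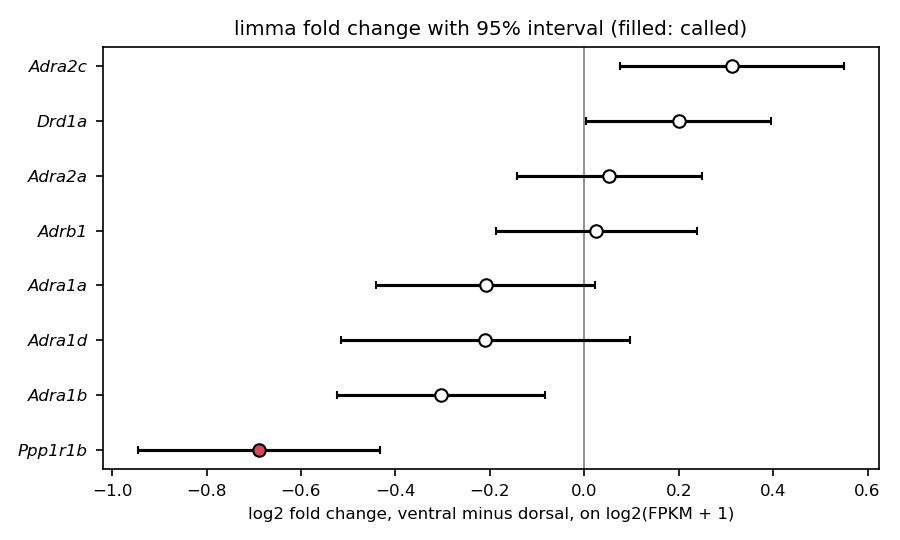
Limma fold change, ventral minus dorsal on log2(FPKM + 1), with its 95% interval for the 8 genes tested; the filled point is the called gene. Ppp1r1b stands at -0.69, and the other points lie between -0.30 (Adra1b) and 0.31 (Adra2c).

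Of the 8 tested genes, 3 had libraries of the regions that do not overlap, Ppp1r1b and Adra1b with dorsal above ventral and Adra2c with ventral above dorsal, where 11.1% of all tested genes had no overlap (6.17% D>V and 4.95% V>D). The median log2 ratio of mean FPKM, ventral to dorsal, was -0.12 over these 8 genes and -0.01 over all genes tested.

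The alpha1 and alpha2 families were listed in opposite directions when their members were summed. The 3 alpha1 receptors together had 6.39, 7.49, 7.13 and 8.18 FPKM in the dorsal libraries and 6.08, 5.34, 5.85 and 5.73 in the ventral ones. Adra2a and Adra2c together had 3.90, 4.58, 4.02 and 4.45 FPKM dorsally and 4.71, 5.02, 5.85 and 4.82 ventrally. Neither sum overlapped between the regions, although Adra1a, Adra1d and Adra2a each did. Mean FPKM, dorsal and ventral, was 4.65 and 3.85 for Adra1a, 1.41 and 0.951 for Adra1b, and 1.24 and 0.946 for Adra1d. It was 2.18 and 2.31 for Adra2a and 2.06 and 2.79 for Adra2c, so that Adra2c carried most of the alpha2 difference. The ratio of the alpha1 to the alpha2 sum was 1.72 ± 0.101 dorsally (range 1.64 to 1.84) and 1.13 ± 0.129 ventrally (range 0.999 to 1.29). The sum of all 6 adrenergic receptors was 15.8 ± 1.10 FPKM dorsally and 15.2 ± 0.590 ventrally, and the regions overlapped. Adra1b made up 8.93% ± 0.928 of that sum dorsally and 6.24% ± 0.669 ventrally, and Adra2c 12.9% ± 1.02 and 18.4% ± 2.32. The families were summed after the values were seen, so that these values are a description with no test. With the regions that the headers name, the alpha1 sum was higher ventrally by 0.323 FPKM, the alpha2 sum by 0.0956 FPKM in place of 0.865, and the ratio by 0.00664.

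**Figure D3:**
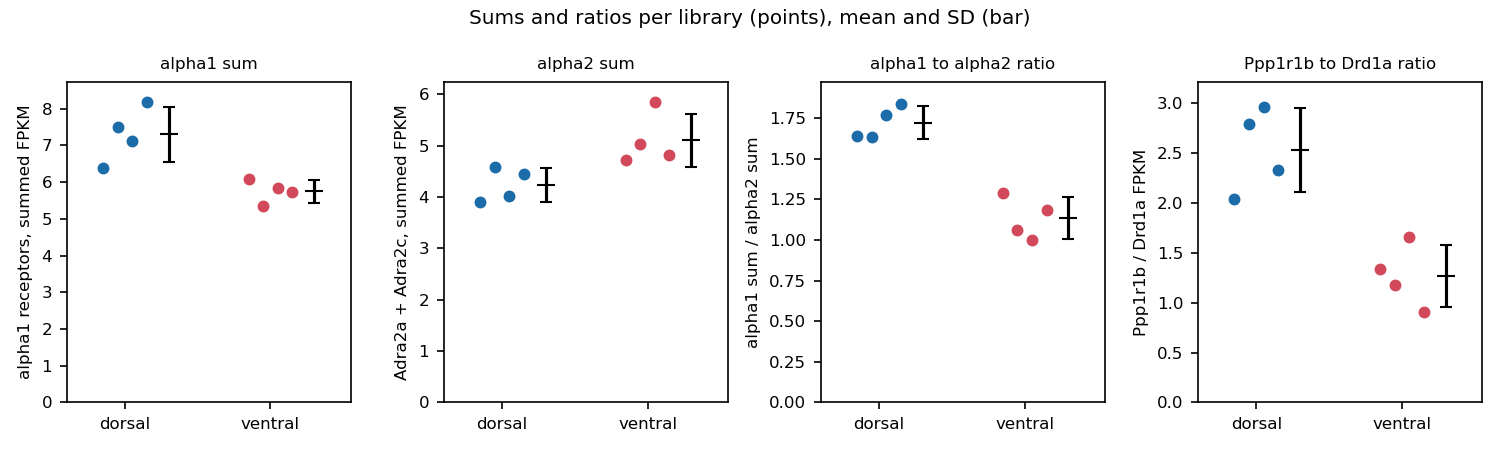
Summed FPKM of the alpha1 receptors and of Adra2a and Adra2c, the ratio of these sums, and the ratio of Ppp1r1b to Drd1a in each library, with mean and SD of 4 libraries. The alpha1 to alpha2 ratio runs from 1.64 to 1.84 in dorsal libraries and from 0.999 to 1.29 in ventral ones.

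By mean FPKM over the 8 libraries the genes were ordered Ppp1r1b (8.53), Drd1a (4.67), Adrb1 (4.34), Adra1a (4.25), Adra2c (2.43), Adra2a (2.24), Adra1b (1.18), Adra1d (1.09), Drd2 (0.351) and Drd5 (0.0992). Neighbours were compared within libraries by an exact sign-flip permutation test on log2(FPKM + 0.1), with p-values adjusted over the 9 pairs. The pairs and the direction of each step were set by the same values, so that these p-values describe spread and are no independent support for the order. The 8 libraries share 4 pools of mice and are not independent, so that these p-values are too small, and 4 libraries of 1 region alone allow no p below 0.125. Drd1a, Adrb1 and Adra1a did not differ beyond their spread from one to the next (adjusted exact p = 0.211 and 0.648). The same held for Adra2c and Adra2a (adjusted exact p = 0.396) and for Adra1b and Adra1d (adjusted exact p = 0.396). Of the other steps, Ppp1r1b was above Drd1a in 7 of 8 libraries (adjusted exact p = 0.0281). The size of that step differed by region, with a mean ratio of 2.53 dorsally and 1.27 ventrally. The steps from Adra1a to Adra2c, from Adra2a to Adra1b, from Adra1d to Drd2 and from Drd2 to Drd5 held in 8 of 8 (adjusted exact p = 0.0176 each). Leaving out 1 library left 4 to 6 of the 9 steps past the threshold, in place of 5. Ppp1r1b lay near the middle of the tested genes, at the 52.0th percentile of mean FPKM, and the tested receptors between the 1.84th and the 34.4th.

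Other members of the same receptor families were at the limit of detection. Adrb3 was listed at 0.254 FPKM dorsally and 0.439 ventrally. Adra2b, at 0.0167 and 0.0188, and Drd4, at 0.0293 and 0, were near 0, and Drd3 was listed at 0 in all libraries. Ppp1ca, a catalytic subunit of the widely used protein phosphatase 1, was also listed at 0 throughout, so that a listed 0 is not read here as absence. None of these receptors reached the minimum level for the test.

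The enzymes and proteins around these receptors were described by 9 lists with 99 genes, all in the table, of which 78 were tested. Limma called 5 of them D>V and 2 V>D, where 2.15% of all genes tested were called D>V and 1.45% V>D. With the regions that the headers name, none of these 7 genes was called (limma adjusted p of 0.955 or more) and 6 of them, all but Prkcb, changed sign, and none was called within the 4 libraries on which header and assignment give the same region. edgeR called 11 of the 78, among them 6 of the 7 (not Prkcb), where it called 6.41% of all genes tested. The median log2 ratio of the 78 tested was -0.0027, against -0.01 over all genes. Of all genes tested, 11.1% had libraries of the regions that do not overlap. The other receptors make up 1 of the lists, with 0 genes tested, and the other 8 follow by their roles.

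Among the 12 genes of catecholamine synthesis, transport and breakdown, 5 were tested and Qdpr was called D>V. Qdpr recycles tetrahydrobiopterin, the cofactor of tyrosine hydroxylase. It had 24.6, 29.6, 29.6 and 25.5 FPKM dorsally and 16.8, 17.3, 16.7 and 17.9 ventrally, with a limma fold change of -0.64 (SE 0.0741, adjusted p = 0.00163). The regions lay well apart. The breakdown enzymes Maob (6.97 and 7.65 FPKM dorsally and ventrally) and Maoa (6.48 and 6.65) were not called. Th, the first enzyme of synthesis, was at 0.159 and 0.194 FPKM, and the transporters of the catecholamine axons, Slc6a3 and Slc6a2, were at 0.0189 or less in either region.

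Of the 10 G protein alpha subunits, 9 were tested and none was called by limma (adjusted p = 0.954 for Gnas, 0.810 for Gnao1, 0.513 for Gnai1, 0.386 for Gnaq and 0.830 for Gnal). Gnas, the widespread stimulatory subunit, was at 747 FPKM dorsally and 738 ventrally, and Gnal, which couples D1 receptors in the striatum, at 44.0 and 45.6.

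The adenylyl cyclases, which make cyclic AMP, included a called gene in each direction among 7 tested. Adcy2 had 26.4, 28.3, 27.6 and 27.0 FPKM dorsally and 18.3, 21.0, 21.2 and 19.8 ventrally (limma fold change -0.43, SE 0.0636, adjusted p = 0.00530). Adcy5, the main cyclase of the striatum, had 7.85, 7.87, 7.82 and 8.66 FPKM dorsally and 11.3, 10.4, 11.4 and 10.4 ventrally (limma fold change 0.39, SE 0.0661, adjusted p = 0.0103). The libraries of the regions did not overlap for either gene. Adcy1, the most abundant cyclase, was at 91.2 and 78.4 FPKM and was not called (limma adjusted p = 0.0717).

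Of the phospholipase C beta and protein kinase C genes, on which alpha1 receptors act, 7 were tested and Prkcb was called D>V. It had 221, 221, 217 and 213 FPKM dorsally and 175, 181, 182 and 176 ventrally, a limma fold change of -0.28 (SE 0.0543, adjusted p = 0.0182). The ranges were narrow and did not overlap. The adjusted p was above 0.05 without the dorsal libraries headed D1, V1 or D2 or the ventral library headed D3 (limma, up to 0.0738) and after rescaling to one total FPKM (limma adjusted p = 0.122). In edgeR its adjusted p was 0.00655, but its fold change of -0.26 did not reach the ratio threshold. Prkcd, at 2.70 FPKM dorsally and 4.50 ventrally, was not called by limma (adjusted p = 0.0520) but was called V>D by edgeR (fold change 0.81, adjusted p = 0.00632). edgeR also called Prkca (49.8 and 40.4 FPKM, adjusted p = 0.00433) and Plcb1 (108.6 and 88.9 FPKM, adjusted p = 0.0481) D>V, which limma did not, so that no call in this list was shared by both tests.

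None of the 11 PKA subunits, inhibitors and anchors was called by limma. The regulatory subunit Prkar1a was at 192 FPKM dorsally and 190 ventrally and the catalytic subunit Prkacb at 147 and 156.

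Of the phosphodiesterases, which break down cyclic nucleotides, 13 were tested and both directions occurred. Pde8a had 3.87, 5.29, 4.53 and 5.07 FPKM dorsally and 2.28, 2.84, 2.96 and 3.22 ventrally (limma fold change -0.57, SE 0.110, adjusted p = 0.0191). Pde1a had 105.9, 79.6, 90.7 and 97.3 FPKM dorsally and 129.7, 129.8, 116.8 and 137.7 ventrally (limma fold change 0.46, SE 0.0913, adjusted p = 0.0214). Neither gene had overlapping regions, yet both calls were lost without single libraries. The adjusted p of Pde8a was above 0.05 without the dorsal library headed V1 (0.0697) or V2 (0.0601) or the ventral library headed D3 (0.0568), all by limma. That of Pde1a was above it without the dorsal libraries headed V1 or D2 or the ventral ones headed D3 or V4, reaching 0.0674 by limma.

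Of the 21 kinases, phosphatases and related inhibitors around DARPP-32, 19 were tested and Arpp19 was called D>V. Arpp19 is a small phosphoprotein that inhibits protein phosphatase 2A when phosphorylated. It had 96.3, 87.4, 87.3 and 88.4 FPKM dorsally and 67.0, 62.9, 58.2 and 67.5 ventrally (limma fold change -0.49, SE 0.0671, adjusted p = 0.00339). All dorsal libraries lay above all ventral ones. Arpp21, at 339 and 328 FPKM, and the calcineurin subunits Ppp3r1 (322 and 262) and Ppp3ca (274 and 244) were not called by limma, while edgeR called Ppp3r1 D>V (adjusted p = 0.0428). The receptor kinases and arrestins gave no limma call among 7 tested, and edgeR called Adrbk2 V>D (14.8 and 17.8 FPKM, adjusted p = 0.0199), with Arrb1 at 26.5 FPKM dorsally and 27.3 ventrally.

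**Figure D4:**
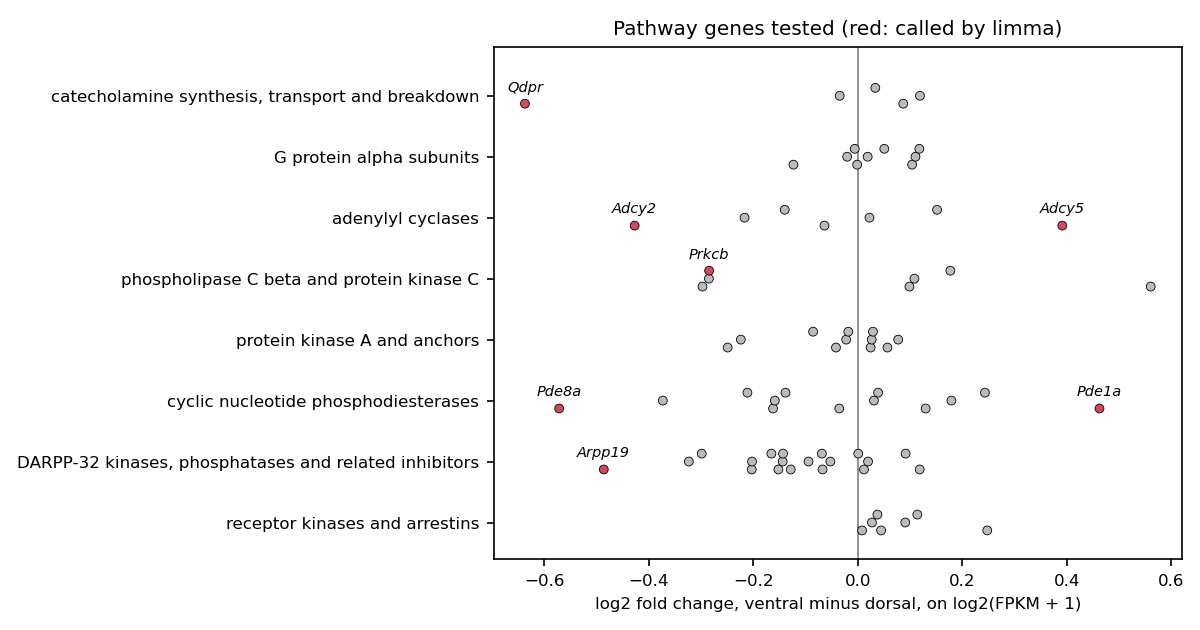
Limma fold change, ventral minus dorsal on log2(FPKM + 1), of the 78 tested pathway genes by list; red points are called and named. Qdpr, Pde8a, Arpp19, Adcy2 and Prkcb lie below 0 and Pde1a and Adcy5 above.

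By likeness over the 8 libraries, the genes whose log2(FPKM + 1) followed Ppp1r1b most closely among 13673 others were Csrp1 (Pearson r = 0.98), Rbm8a (0.98) and Anxa6 (0.97). The libraries share the contrast between regions, so that these values are a description with no p. Among the other genes of the receptor set, Adra1b had r = 0.90 and Drd1a r = -0.84 with Ppp1r1b.

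Markers of the cell types in the tissue moved with the regions too, where limma called 3.6% of all genes tested. The 7 oligodendrocyte markers were all called D>V by limma, and their summed FPKM was 828 to 1102 dorsally and 456 to 599 ventrally. The parvalbumin interneuron gene Pvalb was called D>V and the somatostatin gene Sst V>D, and the sum of the 6 GABAergic markers was 231 to 301 FPKM dorsally and 308 to 398 ventrally, with no overlap. Of 9 deep layer markers, 8 were tested and Syt6 was called V>D, and their sum was 65.4 to 83.9 FPKM dorsally and 85.0 to 105 ventrally. Of 9 markers of striatal projection neurons, cells rich in DARPP-32, 8 were tested and Tac1 and Penk were called V>D. The sum of the 9 was 32.3 to 34.2 FPKM dorsally and 39.9 to 43.0 ventrally. Adora2a, also on this list, was at 0.183 FPKM dorsally and 0.130 ventrally. The layer II marker Wfs1, which is also on the hippocampal list, was called D>V (76.6 and 52.5 FPKM) and Calb1 V>D (4.57 and 7.85), and the sum of the 3 layer II markers was 103.7 to 123 FPKM dorsally and 86.7 to 101 ventrally. Of the 5 glutamatergic markers, all tested, only Slc17a6 was called, D>V. Their sum was 562 to 713 FPKM dorsally and 580 to 740 ventrally, with overlap. Of 7 markers on the hippocampal list, 5 were tested, with Fibcd1 and Fn1 called V>D and Wfs1 D>V. The sum of that list was 80.5 to 104.6 FPKM dorsally and 67.5 to 85.4 ventrally, with overlap. Of 7 markers on the choroid plexus and leptomeningeal list, 4 were tested, and Dcn and Igf2 were called V>D. The sum of this list was 63.0 to 69.5 FPKM dorsally and 102 to 117 ventrally, while the choroid plexus marker Ttr was at 0.0605 FPKM or less. No marker of astrocytes, microglia, oligodendrocyte precursors or endothelial and mural cells was called by limma (0 of 7, 6, 3 and 6 tested), although the precursor sum did not overlap (14.8 to 16.0 FPKM dorsally and 17.3 to 17.7 ventrally). The part of these cell types in the differences of Ppp1r1b and the receptors was not tested.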

How the data were processed

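RNA was amplified with the Ovation RNA-Seq System V2 and sequenced as paired ends. The authors aligned reads with TopHat2 2.0.8 to GRCm38 with the Ensembl annotation and obtained FPKM per gene and library from Cuffdiff. CASAVA 1.8 is also named in the submitters' processing notes. A deposited long table gives estimated counts of fragments, which were joined to the FPKM columns by identical FPKM of all 38553 genes and rounded to whole numbers. The authors' deposited comparison table holds their fold changes, p-values and q-values, which were not used. A total of 2 columns of scaled fragments per sample were not used.

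The main test was limma 3.58.1 (trend) in R 4.3.3 on log2(FPKM + 1) over genes with enough alignments by the authors' status and a mean FPKM of at least 1, unpaired, since which pool a library comes from is not known. The calling rule stands in the report. Drd2 and Drd5 were marked as having too few alignments, so that the fit without the FPKM minimum did not hold them either, and exact permutation tests were used. edgeR 4.0.16 (quasi-likelihood, TMM) on the fragment numbers was added after seeing the data. The scripts were tested on simulated data. The other calculations and the plots were made in Python 3.11.15 (SciPy 1.17.1, NumPy 2.4.6, pandas 2.3.3, matplotlib 3.10.9). Gene positions, strands and overlaps are those of GENCODE M21 (GRCm38).

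The genes and gene lists were chosen with earlier results of these data known. Named genes are the 10 genes, the pathway genes called, up to 4 uncalled genes of the highest FPKM per list, called markers and the 3 genes most like each called gene by Pearson correlation. Genes outside this rule (Th, Prkcd, Gnal, Drd3, Slc6a2, Slc6a3, Ppp1ca, Adora2a, Ttr and genes overlapping the receptors or Ppp1r1b) were chosen after their values were seen. Some genes that the rule takes are not reported here. Alternatives covered the added constant, the filters, scaling, library weights, the regions named by the headers and leaving out each library.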

Additional observations from a re-analysis of the deposited data

How the results depend on the processing

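Under the regions that the headers name, limma called 1 gene and none of the 10 genes or pathway genes (0 and 0, with 721 genes at an unadjusted p under 0.05), and within the 4 libraries on which header and assignment give the same region it called 0 genes, 0 of the receptor set and 0 pathway genes (1240 genes at an unadjusted p under 0.05), in place of 492, 1 and 7. That fit has fewer libraries, and edgeR was not run on either. The headers' split holds the assigned regions in equal number on both sides, so that calls lost under it do not measure how stable a call is. edgeR called 877 genes (471 D>V and 406 V>D), 2 of the receptor set and 11 pathway genes, and over all genes with at least 3 fragments 982, 2 and 11. Rescaling to one total FPKM turned the split of 294 D>V and 198 V>D into 195 and 201 and moved the median fold change of all genes from -0.01 to 0.04. The cause was not tested. Without single libraries, 248 (without the dorsal library headed V1) to 532 genes, 4 to 8 pathway genes and in each case 1 gene of the receptor set were called, and 4 to 6 neighbouring levels differed. Within the dorsal or the ventral libraries alone 0 of 9 did, since 4 libraries cannot give an exact p below 0.125.

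Signs turned under the headers' regions for Adra1a (0.19), Adra2a (-0.027), Arpp19 (0.00035), Qdpr (0.045), Adcy2 (0.041), Adcy5 (-0.024), Pde8a (0.20), Pde1a (-0.018), the alpha1 sum (0.323) and the alpha1 to alpha2 ratio (0.00664). Without single libraries they turned for Adrb1 (-0.041 to 0.081, with -0.013 without the dorsal library headed D2) and Drd5 (-0.16 to 0.024), while Drd2 ran from 0.36 to 0.57. Of 300 fold changes of single genes under alternatives, 264 kept direction and side of the threshold, 30 lost the call (6 of them with a change of sign), 2 gained it and 4 changed sign without a call. Alternatives that changed only the filter or the ratio threshold left each fold change as it was. Their direction could not turn, so that part of the 264 was fixed in advance. No paired analysis was made. The column headers and the table of fragments carry replicate numbers, but these are not stated to name pools of mice. Columns of equal number, such as D1 and V1, were also assigned to the same region. Genes with few fragments (Drd2, Drd5) are limited by depth.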
